A study of Rattus norvegicus with 6 samples.

Results

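Prostanoids are signalling lipids made from arachidonic acid. The cyclooxygenases Ptgs1 (constitutive) and Ptgs2 (inducible) convert it to the shared intermediate prostaglandin H, which terminal synthases turn into prostacyclin (Ptgis), thromboxane (Tbxas1), prostaglandin D (Ptgds) or prostaglandin E (Ptges and Ptges2). Hpgd oxidises prostaglandins in the first step of their inactivation, and Ptgr1 reduces the product. In the liver, prostanoids are made largely by non-parenchymal cells, and hepatocytes both respond to them and clear them.

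The account covers these 9 genes in rat liver. They were chosen by function around Ptgis, which itself was chosen because its signal differed between the treated and control rats of this series. The difference of Ptgis is therefore a description without a test. A probe belonged to a member if its accession mapped to the member's rat symbol, which gave 11 of 61657 non-control probes. There were 7 members with 1 probe and 2 members, Ptgs1 and Ptgs2, with 2 probes. Of the 15284 genes with a named probe, 10257 could be tested, including 7 of the 9 members.

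Liver RNA came from male Sprague-Dawley rats bought at 5 weeks of age, 3 given o-anthranilic acid (2-aminobenzoic acid, which the body also forms from tryptophan) at 1000 mg/kg/day and 3 given corn oil, the vehicle. All rats ate a basal diet, and each liver was measured on 1 single-colour array. The labels give 9 weeks of dosing in the treatment protocol and 28 days in the series design, so the length of treatment is uncertain. A single dose was used.

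Signals are given as a percent of the 75th percentile of the same array, which lay between 489 and 524 intensity units before scaling. Between 53.3% and 58.0% of probes were well above background on an array, by the scanner software's own flag. The lowest signal that carried this flag was 4.09% to 5.73% of the 75th percentile. Across probes, the correlation of 2 arrays was 0.984 to 0.988 for rats of the same group and 0.983 to 0.986 for rats of different groups. All 8 hepatocyte markers checked (Alb, Apoa1, Ttr and others) were well above background on all 6 arrays. Because probes bind with different strength, levels of different genes are not set against each other.

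Of the 7 measured members, Ptgis had the widest difference between the groups. None of the other 6 passed the test. By limma over all probes, 0 of the 6 other tested members had an adjusted p under 0.05, against 0% of 10257 genes and 0.0329% of 33428 probes. At an unadjusted p under 0.05 there were 3 of the 6, namely Hpgd and Ptgr1 with higher and Ptges2 with lower signals in treated livers, against 11.6% of all genes. In each of these 3 genes the treated and corn oil arrays did not overlap, which was also true of 19.8% of all genes, 10.7% in the higher and 9.12% in the lower direction. The median log2 difference of the 6 was 0.17, beside 0.01 over all tested genes. The 6 include Ptgds (0.56), which entered the test through the treated arrays alone, so this median is no sign of a shift of the set. Ptgs2 and Ptges were not well above background on any array.

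**Figure D1:**
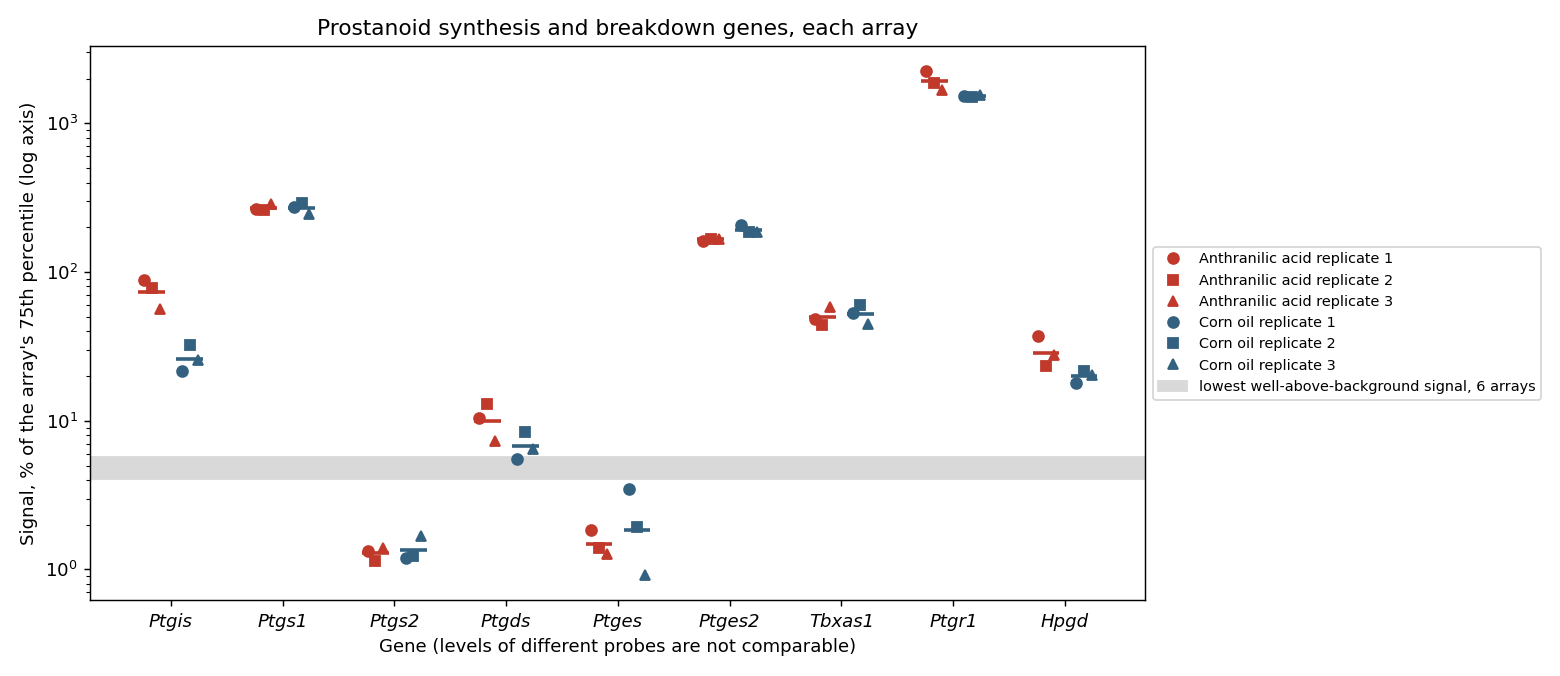
Signal of each gene on each array, as a percent of the array's 75th percentile on a log axis, for anthranilic acid (red, left) and corn oil (blue, right); a symbol is 1 rat, a bar the mean of the log2 values. The Ptgis signals lie between 56.3% and 88.3% in treated livers and between 21.5% and 32.3% in corn oil livers, and Ptgs2 and Ptges lie under the grey band of the lowest signals well above background.

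Ptgis encodes prostacyclin synthase, a cytochrome P450-family enzyme of vessel walls whose product relaxes vessels and restrains platelets. Its signal was 88.3%, 78.6% and 56.3% of the 75th percentile in the 3 treated livers, against 21.5%, 32.3% and 25.7% in the 3 corn oil livers. The groups did not overlap, and the lowest treated value, in replicate 3, stood well clear of the highest corn oil value. The means were 74.4% ± 16.4 in treated and 26.5% ± 5.45 in corn oil livers (SD, n = 3 each). The log2 difference was 1.48 (SE 0.22), or 2.80-fold, and all 6 spots were well above background. Among the 10257 tested genes, 16 had a larger positive difference.

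Leaving out any 1 array gave log2 differences of Ptgis between 1.34 and 1.67. Per the file headers, 5 arrays lay on slide 1, and anthranilic acid replicate 3 alone lay on slide 2 with a later scan. Within slide 1, which leaves out that array, the difference was 1.67. There the treated arrays lay in one row and the corn oil arrays in the other, so row and treatment cannot be told apart. Only 1 Ptgis probe was present, so no second probe could be set beside it.

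**Figure D2:**
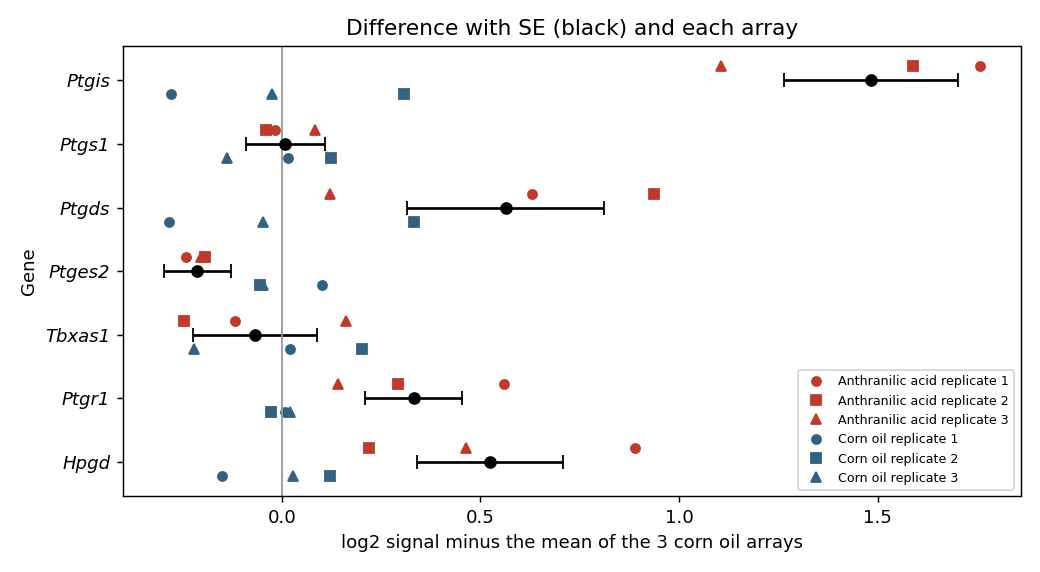
Difference of each tested gene on the log2 scale (black point, with SE) and each array relative to the mean of the 3 corn oil arrays, with anthranilic acid (red) above corn oil (blue). Ptgis stands at 1.48, whereas the other 6 genes lie between -0.21 (Ptges2) and 0.56 (Ptgds); the sign of Ptgs1 and of Tbxas1 turned under some alternatives.

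Prostacyclin synthase is made mainly by endothelial, smooth muscle and fibroblast-like cells, and in a piece of liver more cells of a type and more RNA per cell cannot be told apart. The summed signal of 7 smooth muscle and vessel wall markers was 339% to 379% of the 75th percentile in treated livers, against 332% to 401% in corn oil livers. Pdgfrb gave the largest part of each of these sums. Of the 6 vessel wall markers tested, 2 had higher and 4 lower means in treated livers, and Cnn1 was not well above background on any array. For 8 stellate cell and fibroblast markers the sums were 4371% to 5309% in treated and 4813% to 5022% in corn oil livers, most of each sum coming from Col3a1 and Col1a2. Lum was not well above background anywhere, and of the 7 stellate and fibroblast markers tested 3 had higher and 4 lower means. Endothelial markers, of which 8 of 10 had a probe, summed to 5587% to 6243% in treated and 5961% to 6168% in corn oil livers, most of each sum coming from Kdr. Of the 7 endothelial markers tested, 2 had higher and 5 lower means. The treated and corn oil sums overlapped in all 3 lists. On the probe that represents the gene, 2 single markers of these lists had all treated arrays below all corn oil arrays. The same was true of 9.12% of all genes, so the count is no result about these markers. Lyve1, a marker of sinusoidal and lymphatic endothelium, read 294%, 320% and 332% in treated livers, against 379%, 439% and 382% in corn oil livers, a difference of -0.34 (SE 0.10, adjusted p = 0.319). Myh11, the smooth muscle myosin, read 39.1%, 33.5% and 38.8% in treated livers, against 46.0%, 42.1% and 44.7% in corn oil livers, a difference of -0.26 (SE 0.10, adjusted p = 0.392). Its other tested probes, with lower mean signals, went the other way with wide errors, at 0.34 (SE 0.52), 0.83 (SE 0.68) and 0.49 (SE 0.91). The direction of Myh11 therefore depends on the probe.

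Sums of lymphocyte and hepatocyte markers did not overlap between the groups. Among single genes, 19.8% of all did not overlap, and no such share was taken for sums. The sums of 7 lymphocyte markers were 277% to 291% in treated livers and 186% to 205% in corn oil livers, without overlap, and 5 of the 6 tested had higher means. Cd3e was not well above background on any array. Mesothelial markers, with 3 of 4 on the array, summed to 62.8% to 79.4% in treated and 30.1% to 64.3% in corn oil livers, with a narrow overlap. Both tested genes, Msln (0.78) and Krt19 (0.60), had higher means, and Wt1 was not well above background on any array. Mast cell markers summed to 898% to 2740% in treated and 777% to 1190% in corn oil livers, again with overlap. The treated range followed Hdc, the histamine-forming enzyme, with 2242%, 1137% and 424% in treated livers, against 201%, 232% and 657% in corn oil livers. Of the 4 mast cell markers tested, 3 had higher means in treated livers, namely Hdc (1.71), Cma1 (0.43, SE 0.31) and Kit (0.05, SE 0.21). The other, the mast cell tryptase Tpsab1, was lower on every treated array, at -0.36 (SE 0.10, adjusted p = 0.315). Cpa3 was well above background on 0 treated and 2 corn oil arrays, and Fcer1a on 2 treated and 0 corn oil arrays. Hepatocyte markers had lower sums, 458141% to 470611% in treated against 493312% to 507951% in corn oil livers. Of the 8 hepatocyte markers tested, 7 had lower means and 1 a higher mean. Their median log2 difference was small, at -0.09, with the lowest at -0.57 (Apoa1). The part of these cells in the Ptgis result was not tested.

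**Figure D3:**
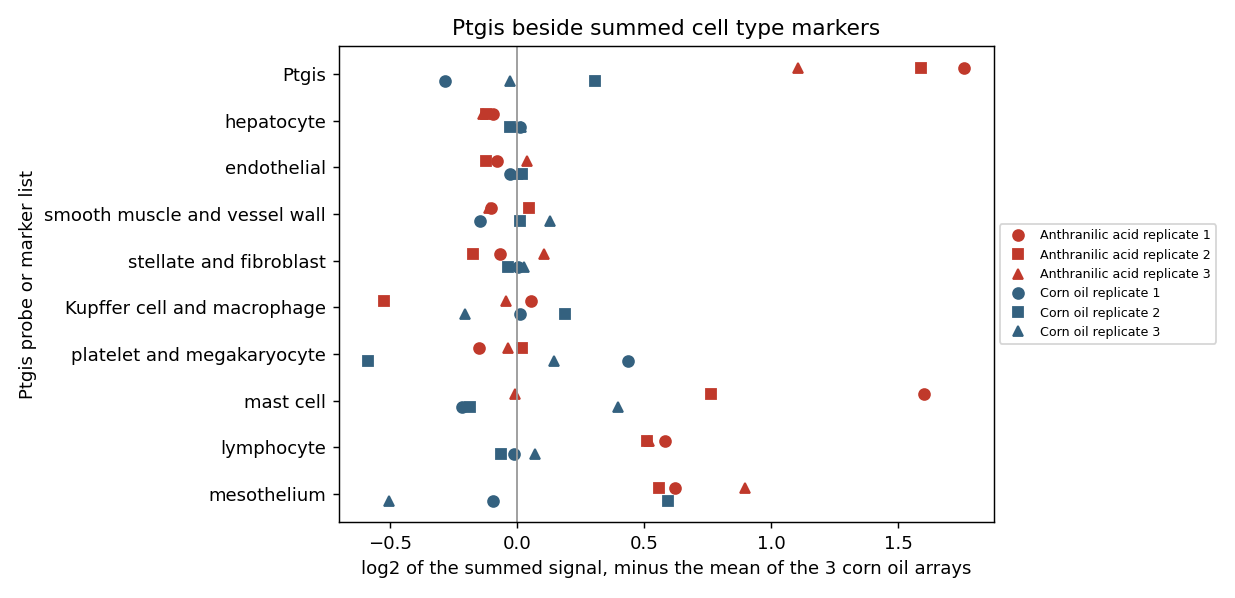
The Ptgis probe (top row) and the summed signal of each cell type marker list on each array, on the log2 scale relative to the mean of the 3 corn oil arrays; anthranilic acid is red and above, corn oil blue and below. Treated and corn oil livers overlap for endothelial, vessel wall and stellate markers and are apart for Ptgis, lymphocyte and hepatocyte markers.

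The genes most like Ptgis over the 6 arrays, among 709 genes with an SD of at least 0.5, were Cdca7l (Pearson r = 0.982), Olr35 (0.979), Srpk3 (0.959), Slc17a3 (0.947) and Rab19 (0.936). All 5 had 3 treated arrays above 3 corn oil arrays, with log2 differences from 0.94 (Slc17a3) to 1.31 (Srpk3). Of all genes, 10.7% did so. The 5 were picked for likeness to Ptgis, whose groups do not overlap, so their separation is no further result. Rab19 was well above background on 2 corn oil arrays and entered the test through the treated arrays alone. These r values include the difference between the groups, which all of these genes share with Ptgis, and rest on 6 arrays.

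Upstream of Ptgis, cyclooxygenase Ptgs1 had nearly equal signals in both groups. Its brighter probe read 266%, 262% and 285% in treated livers, against 272%, 293% and 244% in corn oil livers. The log2 difference was 0.01 (SE 0.10, 95% interval -0.23 to 0.25, adjusted p = 0.980), and its sign turned under 4 alternatives. The dimmer probe gave means of 19.5% ± 1.99 in treated and 19.4% ± 3.15 in corn oil livers (SD, n = 3 each), a difference of 0.01 (95% interval -0.34 to 0.37).

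Ptgs2, the cyclooxygenase that inflammation and growth factors induce, read between 1.04% and 1.39% over its 2 probes in treated livers, and between 1.06% and 1.68% in corn oil livers. These signals lie below the lowest well-above-background signal of every array. Ptges, the inducible prostaglandin E synthase that is often coupled to Ptgs2, likewise read 1.85%, 1.39% and 1.28% in treated livers, against 3.47%, 1.94% and 0.917% in corn oil livers. No direction is given for either gene, because both groups have only an upper bound.

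Among the other terminal synthases, Tbxas1, the thromboxane synthase of platelets and macrophages, had signals of 48.2%, 44.1% and 58.5% in treated livers and 53.0%, 60.1% and 44.9% in corn oil livers. The groups overlapped fully, and the difference of -0.07 (SE 0.16, 95% interval -0.44 to 0.31, adjusted p = 0.882) turned its sign without anthranilic acid replicate 2 (0.02) or corn oil replicate 2 (0.03). Macrophage markers, 8 of 8 tested, summed to 6662.5% to 9957% in treated and 8313% to 10926% in corn oil livers, and 7 of the 8 had lower means in treated livers. Most of each macrophage sum came from Clec4f. Platelet markers summed to 191% to 216% in treated and 142% to 287% in corn oil livers, with Ppbp and Gp1ba not well above background on any array.

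Ptges2, a membrane-associated prostaglandin E synthase that is expressed constitutively, was lower on every treated array. Its signals were 163%, 168% and 167% in treated livers, against 206%, 185% and 186% in corn oil livers. The treated arrays lay close together, and the gap to the lowest corn oil array was small. The log2 difference of -0.21 (SE 0.08, 95% interval -0.42 to -0.01) did not pass (unadjusted p = 0.0435, adjusted p = 0.399).

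Ptgds, the lipocalin-type prostaglandin D synthase, was dim. It read 10.4%, 12.9% and 7.31% in treated livers, against 5.52%, 8.46% and 6.50% in corn oil livers. Corn oil replicate 1 was not well above background, so Ptgds entered the test through the treated arrays alone. The groups overlapped, with treated replicate 3 below corn oil replicate 2. The difference was 0.56 (SE 0.25, 95% interval -0.04 to 1.16, adjusted p = 0.422). It was 0.38 without anthranilic acid replicate 2 and 0.25 with normexp background correction, which adds an offset of 50 to every spot and so shrinks differences between dim spots.

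Both breakdown enzymes had higher means in treated livers without passing the test. Hpgd, the dehydrogenase that starts prostaglandin inactivation, read 36.9%, 23.2% and 27.5% in treated livers, against 18.0%, 21.7% and 20.4% in corn oil livers. The lowest treated array, replicate 2, lay just above the highest corn oil array. The log2 difference was 0.52 (SE 0.18, 95% interval 0.08 to 0.97, unadjusted p = 0.0278, adjusted p = 0.371), and it was 0.34 without anthranilic acid replicate 1.

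Ptgr1, which also inactivates leukotriene B4 and carries the synonyms Ltb4dh and Dig1 in RefSeq, read 2246%, 1866% and 1681% in treated livers, against 1531%, 1494% and 1544% in corn oil livers. The corn oil arrays lay close together (SD 0.02 on the log2 scale) and the treated arrays spread more widely (SD 0.21). The log2 difference was 0.33 (SE 0.12, 95% interval 0.04 to 0.63, unadjusted p = 0.0336, adjusted p = 0.387), and 0.22 without anthranilic acid replicate 1. That rat had the highest signal of Ptgis, Hpgd and Ptgr1 alike.

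Around the 9 members, 66 further genes of arachidonic acid metabolism were listed, of which 61 had a named probe and 47 could be tested. By limma 0 of the 47 passed at adjusted p under 0.05 (smallest adjusted p = 0.310), against 8 at unadjusted p under 0.05, 4 higher and 4 lower. Over all genes, 5.47% were higher and 6.15% were lower by the same unadjusted criterion. The median difference was 0.04.

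Genes that release arachidonic acid had 12 of 19 tested, with 7 means higher, 5 lower and a median of 0.10, and 0 at unadjusted p under 0.05. Values ran from -0.60 (SE 0.32, adjusted p = 0.486) for the lysosomal phospholipase Pla2g15 to 0.61 (SE 0.58, adjusted p = 0.687) for the secreted phospholipase Pla2g2d. Pla2g15 stood at -0.29 without anthranilic acid replicate 2. Pla2g2d was at 0.21 without anthranilic acid replicate 1, 0.21 without corn oil replicate 3 and 1.19 without anthranilic acid replicate 2. Pla2g4a, the cytosolic phospholipase that supplies the cyclooxygenases, was at -0.07 (SE 0.13, adjusted p = 0.852).

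The other synthases and reductases had all 8 genes tested, 5 higher and 3 lower, with a median of 0.05. Akr1c3, of a family of aldo-keto reductases in which the human enzyme makes prostaglandin F, read 217%, 264% and 185% in treated livers, against 94.6%, 116% and 169% in corn oil livers. All treated arrays lay above all corn oil arrays, and the difference was 0.84 (SE 0.24, adjusted p = 0.310). Its second probe gave 0.95 (SE 0.24, adjusted p = 0.268). Gstm2, whose human counterpart can form prostaglandin E, was at -0.37 (SE 0.15, adjusted p = 0.405), and at -0.24 without corn oil replicate 1. Both belong to families with similar copies, so the signal may include related transcripts. Hpgds, the haematopoietic prostaglandin D synthase, was at 0.09 (SE 0.15, adjusted p = 0.838).

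Of the other breakdown and transport genes, 6 of 7 had higher means in treated livers, with a median of 0.15. On the probes that represent the genes, 0 had an unadjusted p under 0.05. The range was narrow, from -0.04 (SE 0.12, adjusted p = 0.924) for the reductase Ptgr2, whose sign turned under 3 alternatives, to 0.35 (SE 0.15, adjusted p = 0.414) for the exporter Abcc4, which was at 0.22 without anthranilic acid replicate 1. The other tested Abcc4 probes gave 0.33 (SE 0.12, limma unadjusted p = 0.0369, adjusted p = 0.389) and 0.26 (SE 0.14, adjusted p = 0.476). Slco2a1, the transporter that takes up prostaglandins for breakdown, was at 0.13 (SE 0.18, adjusted p = 0.784).

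Prostanoid receptors had 9 of 12 genes tested, 3 higher and 6 lower, with a median of -0.11. Ptgfr, the receptor for prostaglandin F, read 21.2%, 34.3% and 27.2% in treated livers, against 21.0%, 17.7% and 15.5% in corn oil livers. The arrays did not overlap, but treated replicate 1 and corn oil replicate 1 were almost equal. The difference was 0.59 (SE 0.20, adjusted p = 0.362). Ptgdr2, a prostaglandin D receptor of immune cells, was at -0.39 (SE 0.15, adjusted p = 0.395), and Ptgfrn, a membrane protein that binds near the prostaglandin F receptor, at -0.44 (SE 0.19, adjusted p = 0.414). Ptgdr2 stood at -0.25 without anthranilic acid replicate 2 and Ptgfrn at -0.29 without anthranilic acid replicate 3. Ptgir, the receptor for the product of Ptgis, averaged 61.0% ± 6.84 in treated and 65.5% ± 3.15 in corn oil livers (SD, n = 3 each), a difference of -0.11 (SE 0.11, 95% interval -0.37 to 0.16, adjusted p = 0.713). The thromboxane receptor Tbxa2r was at -0.21 (SE 0.12, adjusted p = 0.512). Ptger2 and Ptger4 were not well above background on any array.

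In the lipoxygenase and epoxide branches, which compete for arachidonic acid, 11 of 20 genes were tested, 5 higher and 6 lower, with a median of -0.03. Ltc4s, the leukotriene C synthase, had the most negative value at -1.33 (SE 0.42, adjusted p = 0.343) on the probe with the higher mean log2 signal over the 6 arrays, with 7.55%, 8.57% and 4.91% in treated livers, against 30.7%, 10.1% and 16.2% in corn oil livers. This probe was well above background on 2 treated arrays, and the second probe missed the detection flag on every treated array. Both probes therefore entered the test through the corn oil arrays alone, where the second read 64.6%, 10.7% and 25.6%. This made the second probe at least 5.11-fold lower in treated livers by the bound that the lowest detectable signal allows, given as a description. The bound holds for that probe and not for the gene, since the first probe was 2.51-fold lower. The first probe stood at -0.91 without corn oil replicate 1.

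Ggt1, which trims glutathione conjugates including leukotriene C, was at 0.90 (SE 0.36, adjusted p = 0.401) and not well above background on 1 corn oil array. Ggt1 therefore entered the test through the treated arrays alone. It was at 0.54 without corn oil replicate 1. Alox5ap, the partner of the leukotriene-forming lipoxygenase, was at 0.42 (SE 0.17, adjusted p = 0.408), while the lipoxygenase Alox5 itself was not well above background on any array. Alox12b, a lipoxygenase known from skin, was at -0.33 (SE 0.10, adjusted p = 0.331). The 4 leukotriene receptors listed, Ltb4r, Ltb4r2, Cysltr1 and Cysltr2, were not well above background on any array. With normexp background correction the differences of 6 genes of these lists were smaller by over 1.5 times: -0.66 for Ltc4s, 0.44 for Ggt1, 0.39 for Ptgfr, 0.21 for Alox5ap, -0.20 for Ptgdr2 and -0.13 for Alox12b.

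**Figure D4:**
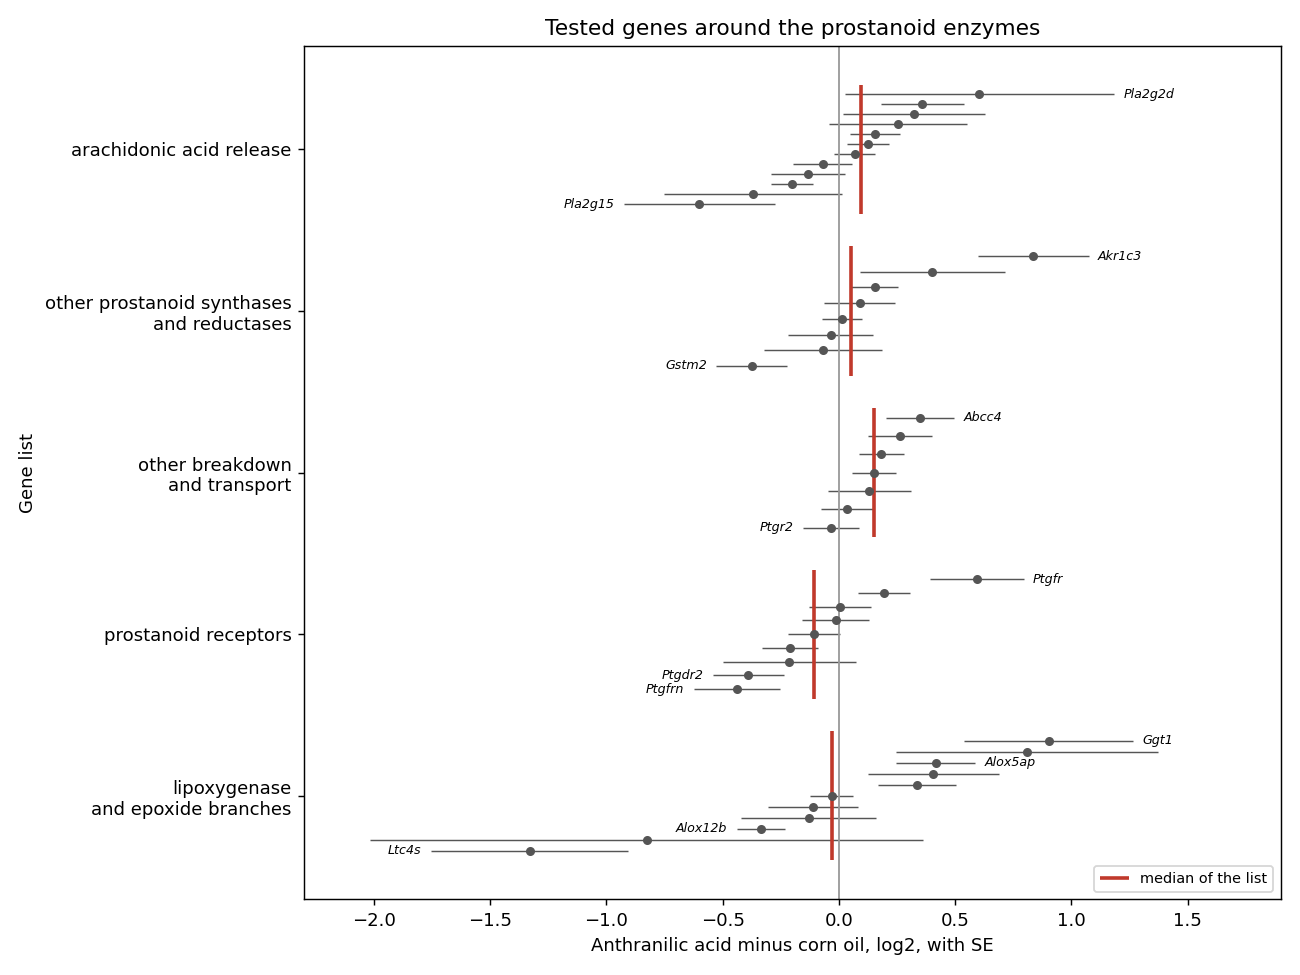
Difference of each tested gene around the prostanoid enzymes (points, with SE, log2 scale, anthranilic acid minus corn oil) by list, with the median of each list in red and the genes given in the text named. The list medians lie between -0.11 (receptors) and 0.15 (other breakdown and transport), and the single genes between -1.33 (Ltc4s) and 0.90 (Ggt1); the sign of Ptgr2 turned under 3 alternatives.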

How the data were processed

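The deposited intensity files hold single-colour spot signals that Agilent Feature Extraction 10.7.1.1 had background-subtracted, detrended and raised to a small positive value where dim, per the file headers (version 10.7 in the submitters' processing notes). The authors' deposited value table holds, as a ratio, the processed signal over a scaling factor that lay within 0.126% of the 75th percentile of each array, with column medians from 0.0887 to 0.0976. Its scaling method is not stated in the labels.

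The processed signal was log2-transformed, minus the log2 of the 75th percentile over non-control probes of the array. Control spots and 14 flagged outlier spots of 369942 were left out. A probe entered the test if either group had all 3 of its arrays well above background and both groups had 2 or more unflagged spots. The test was two-sided, from lmFit and eBayes of limma 3.58.1 (R 4.3.3), on 3 rats per group with 1 array per rat; the fit had 4 residual degrees of freedom and 2.30 from the prior, with Benjamini-Hochberg adjustment over 33428 probes. Differences subtract corn oil from anthranilic acid. Genes were named by accession through the RefSeq table of GRCr8, which matched 44.5% of probes, and represented by the tested probe with the highest mean signal. No coordinates are printed, since the headers refer to rn4.

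Members, lists and the naming rule were chosen with earlier results of these data known. The rule names all members, the pathway genes with an unadjusted p under 0.05, the highest and lowest gene of each list, and the 5 genes most like Ptgis; other list genes named were chosen after their values were seen. The fit was tested on simulated data. Alternatives covered background correction, scaling, the value table, the filter, the variance model, slide and replicate number as blocks, the probe that represents a gene, and each array left out. With 3 arrays per group, precision is limited.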

Additional observations from a re-analysis of the deposited data

How the results depend on the processing

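Of 318 values over 20 genes (the 7 tested members and the 13 other named genes of the lists) under the alternatives, 308 kept their direction and side of the threshold, or for Ptgis stayed within the spread between replicates. This count is no measure of robustness. Fits that changed only the filter, the variance model or the replicate block returned the same difference. Slide as a block gave the same difference as leaving out anthranilic acid replicate 3. With no gene called by its representing probe in the main fit, there was also little room to change side. None of the 6 other members and none of the listed pathway genes passed under any of the 16 fits by limma. Ptgis was at 1.04 with normexp background correction, whose offset compresses dim spots, and at 1.34 to 1.67 with an array left out. Ptgs1, near 0, was at -0.0458 with normexp, -0.0298 with slide as a block, and -0.0610 to 0.0696 with an array left out; Tbxas1 was at -0.183 to 0.0323 with an array left out. Ptgr2 was at 0.00514 with normexp, 0.0161 with median scaling, and -0.131 to 0.0594 with an array left out. Ptgds, Ltc4s and Ggt1 have no value where all 6 arrays had to be well above background.

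The number of probes called over the whole array, 11, was 50 with normexp, 45 with a trended robust variance, 21 with median scaling, 6 with slide as a block, and 4 to 21 with an array left out. It was 2 without the filter on dim probes, 2 with all 6 arrays above background, and 2 with the looser detection flag. With replicate number as a block it was 2 as well. The labels do not say that a replicate number pairs rats. Same-numbered rats correlated at 0.04, -0.09 and -0.07 in their deviations from the group means. Deviations from means of only 3 arrays cannot show whether rats were paired. The cause of these shifts was not tested. Signals under the detection limit, as for Ptgs2 and Ptges, give no difference.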

Other observations

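Ephx2, the soluble epoxide hydrolase that degrades epoxides of arachidonic acid, varied between rats within each group more than between groups. Its signal was 577%, 304% and 57.2% of the 75th percentile in treated livers, against 82.7%, 898% and 754% in corn oil livers, so that 1 rat of each group was far below the others. The difference of -0.83 had an SE of 1.19 (limma adjusted p = 0.800). Hdc, the histidine decarboxylase that was listed as a mast cell gene, read 2242%, 1137% and 424% in treated livers, against 201%, 232% and 657% in corn oil livers (difference 1.71, SE 0.71, adjusted p = 0.407). Alox15, a lipoxygenase, read 70.8% in treated replicate 3, while the other 5 livers lay between 14.3% and 19.1%. These 3 genes were chosen after their values were seen.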
